A study of Homo sapiens with 3 samples.

Results

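The data described here are the transcriptome of 1 library, the scrambled siRNA control of a series of 3 libraries. It was chosen by its label alone, and no measured value entered the choice. Per the labels, the cells were NCI-N87, an established human gastric cancer line, wild type in genotype, and were transfected with Lipofectamine 2000 and a scrambled siRNA. The other 2 libraries of the series came from the same labelled line after transfection with different siRNAs against the forkhead transcription factor FOXP4. The libraries were made from polyadenylated RNA. The value for each gene is TPM, the length-corrected share of reads that a gene received. Levels of different genes can therefore be set side by side, and all values are levels of this library unless another quantity is named. The control has no replicate, so no value has a replicate error and no test was possible.

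NCI-N87 was derived from a metastasis of a gastric carcinoma and is widely used as a model of HER2-positive disease, because its ERBB2 gene is amplified and strongly expressed. Normal gastric epithelium is made of surface mucous cells, which secrete the mucin MUC5AC and the trefoil peptide TFF1, neck and gland cells with MUC6, TFF2 and lysozyme, acid-secreting parietal cells and pepsinogen-secreting chief cells. Gastric tumours often turn on intestinal programmes, of which the homeobox factor CDX2 is a central driver. SOX2 marks the stomach and foregut, and keratin 8 is a filament protein of simple epithelia.

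Estimated depth was about 18400000 reads. It was read from the low values, since 93.2% of them came to whole reads with a tolerance of 0.1 read, where 20% would do so by chance. For a transcript of 2000 bases, 1 read was worth 0.107 TPM, 3 reads 0.321 TPM, and 1 TPM rested on about 9.34 reads, a counting error of 32.7%. At 10 TPM the counting error was 10.3%. Counting error is only part of the error, and neighbours in an order of levels that lie this close cannot be told apart.

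The 5 markers set for the line gave a divided picture. KRT8 (ENSG00000170421.12, chromosome 12, 52897187 to 52949954, minus strand, GRCh38) stood at 1733 TPM, rank 46 of 31907 rows. LYZ, which encodes lysozyme (ENSG00000090382.6, chromosome 12, 69348341 to 69354234, plus strand), stood at 3574 TPM, rank 18. CDX2 (ENSG00000165556.9, chromosome 13, 27962137 to 27971139, minus strand) stood at 161 TPM and SOX2 (ENSG00000181449.3, chromosome 3, 181711924 to 181714436, plus strand) at 59.5 TPM. ERBB2 (ENSG00000141736.13, chromosome 17, 39687914 to 39730426, plus strand) measured 89.8 TPM on about 4329 estimated reads, rank 2136, and lay at percentile 87.6 of protein-coding genes. KRT8, LYZ, CDX2 and SOX2 were thus all above 1 TPM, though 12 of 23 gastric gland and surface genes, described below, were not. The level of ERBB2 went against the strong expression for which NCI-N87 is known, but no reference library of that line was compared. ERBB2 measured 58.9 TPM and 63.9 TPM in the libraries labelled siRNA1 and siRNA2, so neither was above the 89.8 TPM of the scrambled siRNA library. The cells are therefore called the library labelled NCI-N87, or the scrambled siRNA library, below.

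**Figure D1:**
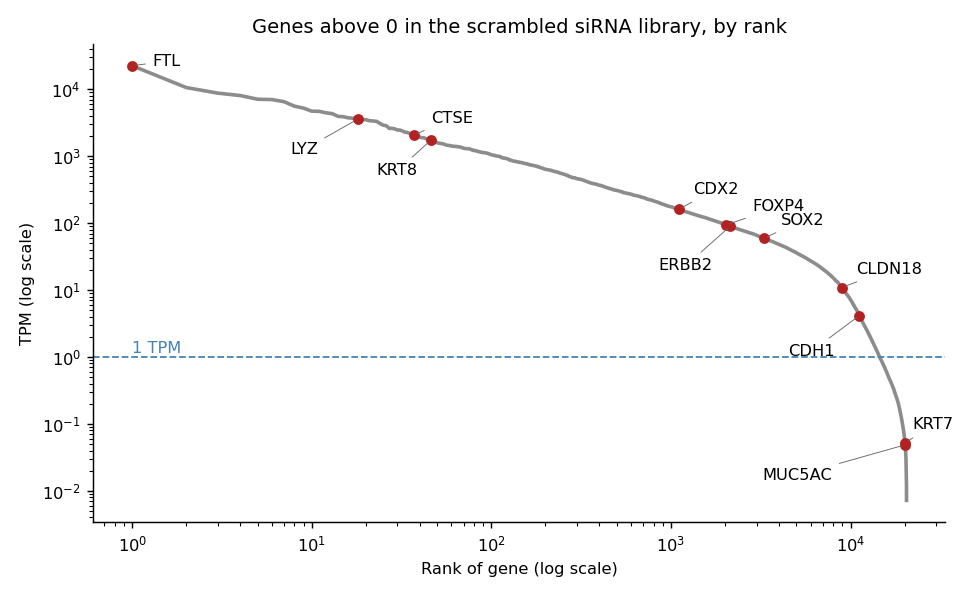
TPM (log scale) of every gene above 0 in the scrambled siRNA library against its rank (log scale), with named genes as red points and 1 TPM as a dashed line. FTL leads at 22494 TPM, ERBB2 and FOXP4 lie close together at 89.8 and 93.9 TPM, and MUC5AC and KRT7 lie near the bottom.

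Transcript abundance was spread over many genes. In the table, 14509 of 31907 rows (45.5%) reached 1 TPM, and so did 11224 of 16747 rows matched to a protein-coding gene (67%). Among the coding genes at or above 1 TPM the median was 28.7 TPM, with quartiles at 11.0 and 68.9 TPM. There were 1908 rows (5.98%) at or above 100 TPM and 108 at or above 1000 TPM, which held 70.3% and 26.6% of all TPM. The 10 most abundant rows took 8.63% of TPM and the 100 most abundant took 25.8%. Cytosolic ribosomal protein genes, 84 rows with paralogs included, took 8.27% of TPM at a median of 778 TPM. The 13 mRNAs encoded by mitochondrial DNA took 5.15%, with MT-CO1, of respiratory complex IV, highest at 8757 TPM. The mitochondrial rRNA MT-RNR2, at 10619 TPM, was second of all rows.

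The most abundant transcript of a nuclear gene was FTL, the ferritin light chain that stores iron, at 22494 TPM or 2.25% of all TPM. Next came TMSB10, a thymosin that binds actin monomers, at 7018 TPM, and the translation elongation factor EEF1A1 at 6531 TPM. Among the first 30 nuclear rows, 11 were ribosomal protein genes, among them RPL13A at 5602 TPM and RPS2 at 3536 TPM. The elongation factor EEF2 measured 3356 TPM, the actins ACTB and ACTG1 4452 and 2849 TPM, and the glycolytic enzyme GAPDH 1981 TPM. Several leaders had more restricted known roles. The calcium-binding S100A11, S100A10 and S100A6 stood at 5224, 3886 and 3741 TPM, and LYZ was the 10th nuclear row. H19, an imprinted long non-coding RNA of fetal tissues and tumours, measured 3387 TPM and was the highest of 1893 long non-coding RNA rows. The linker histone gene H1F0 measured 3080 TPM, and HMGA1, a chromatin protein of proliferating and malignant cells, 2604 TPM. CST1, a secreted inhibitor of cysteine proteases, measured 2195 TPM, and CTSE, an aspartic protease of gastric mucosa, 2081 TPM. YBX1, a cold shock domain protein that binds RNA, measured 2458 TPM and PTMA, a small nuclear protein, 1924 TPM. The pseudogene RPL41P1 was listed at 2909 TPM and its parent RPL41 at 1118 TPM, a case where reads from near-identical copies cannot be assigned with certainty.

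The start sequences of the most abundant genes are shown because many ribosomal protein and elongation factor mRNAs begin with a C followed by a run of C and T, the terminal oligopyrimidine tract, through which mTOR signalling is known to control their translation. The bases around the listed start are shown for the 8 most abundant genes with such a run and the 4 most abundant without it, among genes with 1 listed start. Each sequence runs from 8 bases before the start to 22 from it, 5′ to 3′ (RefSeq, GRCh38.p14), and capitals mark the run.
EEF1A1 (chr6:73521011-73521040, minus strand): tgaacgttCTTTTTCgcaacgggtttgccg
RPL13A (chr19:49487600-49487629, plus strand): acctcctCCTTTTCCaagcggctgccgaag
S100A6 (chr1:153535970-153535999, minus strand): cacagcccatCCCCTCgaccgctcgcgtcg
EEF2 (chr19:3985442-3985471, minus strand): tcagcgttCTCTTCCgccgtcgtcgccgcc
RPS12 (chr6:132814561-132814590, plus strand): gatgaggCCTCTTTCCCTgccgccgccgag
RPS27 (chr1:153990754-153990783, plus strand): ctttcgCTCCTTTCCggcggtgacgaccta
RPL7A (chr9:133348210-133348239, plus strand): tccctttCCTTTCTCTCTCCTCCCgccgcc
RPS16 (chr19:39435928-39435957, minus strand): ctagctttCCTTTTCCggttgcggcgccgc
FTL (chr19:48965301-48965330, plus strand): gtcccctcgcagttcggcggtcccgcgggt
TMSB10 (chr2:84905648-84905677, plus strand): gctcttttgtttcttgctgcagcaacgcga
S100A11 (chr1:152036983-152037012, minus strand): cgtgggttgaggagaggctccagacccgca
S100A10 (chr1:151993838-151993867, minus strand): ctccctctacccacccgccgcacgtactaa
A run was counted where a C within 2 bases of the start was followed by at least 5 bases that were all C or T, on the strand of the gene. It was found at 21 of 57 starts of genes at or above 1000 TPM (36.8%), at 12.5% of 1057 between 100 and 1000 TPM, at 7.04% of 4006 between 10 and 100 TPM, at 7.68% of 1446 between 1 and 10 TPM and at 6.53% of 3080 under 1 TPM. Over all 9646 coding genes with 1 listed start the share was 7.74%. Ribosomal protein genes held it at 41 of 56 starts (73.2%). With those left out, 6 of 35 starts at or above 1000 TPM held it (17.1%). A match is a description of the letters at the RefSeq start and not of the starts used in these cells.

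Gastric differentiation genes ranged from among the most abundant transcripts to 0. Of 23 gastric gland and surface genes with a row, 11 reached 1 TPM, 47.8% beside 67% of all coding genes. There were 3 at or above 100 TPM and 7 listed at 0, beside 11.1% and 18.3% of all coding genes. LYZ and CTSE, at 3574 and 2081 TPM, were followed by AGR2, a disulfide isomerase that folds mucins, at 301 TPM and by TFF1 at 75.95 TPM. The membrane mucin MUC1 measured 53.9 TPM, the pepsinogen gene PGC 12.6 TPM, and CLDN18, whose gastric isoform seals the junctions of stomach cells, 10.9 TPM. The main secreted gastric mucins were near or at 0, with MUC5AC at 0.049 TPM on about 4.0 estimated reads and MUC6 listed at 0. TFF2 measured 0.77 TPM, on about 3.0 estimated reads. GKN1 of surface cells, the pepsinogen PGA5 and the lipase LIPF of chief cells, and ATP4A and ATP4B, the subunits of the parietal proton pump, were listed at 0. Markers of mature parietal and chief cells were therefore listed at 0, apart from PGC and BHLHA15, a secretory cell factor at 9.85 TPM.

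Intestinal genes were present in part. Of 36 absorptive, goblet and Paneth cell genes with a row, 17 reached 1 TPM (47.2%, beside 67% of all coding genes). Listed at 0 were 5, beside 18.3% of all coding genes. Among absorptive genes CDH17, the liver-intestine cadherin, stood highest at 350 TPM, with the tetraspanin TSPAN8 at 331 TPM, the galectin LGALS4 at 147 TPM and the brush border protein VIL1 at 136 TPM. CEACAM6 and CEACAM5, adhesion proteins of the intestinal surface, measured 45.2 and 16.6 TPM. Markers of mature enterocytes were low. The alkaline phosphatase ALPI measured 8.23 TPM, KRT20 3.80 TPM, the fatty acid binding protein FABP1 0.43 TPM and sucrase-isomaltase SI 0.28 TPM. Among secretory genes PLA2G2A, the Paneth cell phospholipase, measured 856 TPM and the lectin REG4 786 TPM, while the goblet mucin MUC2 was listed at 0 and TFF3 measured 0.55 TPM. The membrane mucin MUC13 measured 62.5 TPM. The medians of the gastric and intestinal lists were close, 0.77 TPM and 0.67 TPM. Neither programme was the higher as a list, and 3 gastric and 6 intestinal members reached 100 TPM, as 11.1% of coding genes did.

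By list median, lineage transcription factors were higher than the differentiation genes. Of 13 gastric and foregut factors 12 reached 1 TPM, at a median of 59.5 TPM, beside 67% and 11.3 TPM over all coding genes. KLF5 led at 393 TPM, followed by FOXA3 at 182 TPM, GATA6 at 139 TPM, GATA4 at 137 TPM, ELF3 at 86.4 TPM and FOXA1 at 69.1 TPM. SOX2 itself was the middle member. SOX21 and ESRRG measured 5.74 and 3.27 TPM, and BARX1, a stomach mesenchyme factor, 0.12 TPM. Of 14 intestinal factors 9 reached 1 TPM (64.3%, near the 67% of all coding genes), at a median of 3.85 TPM. The 2 lists differ in make-up, so their medians do not order gastric against intestinal identity. CDX2 was highest, before HNF4A at 69.7 TPM, KLF4 at 54.7 TPM and PDX1, a duodenal, antral and pancreatic factor, at 23.2 TPM. CDX1, NR1H4 and ATOH1, the secretory lineage factor, were listed at 0, so CDX2 was detected without CDX1. Both CDX2 and SOX2 were well above 1 TPM, and bulk RNA cannot tell whether they shared cells.

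**Figure D2:**
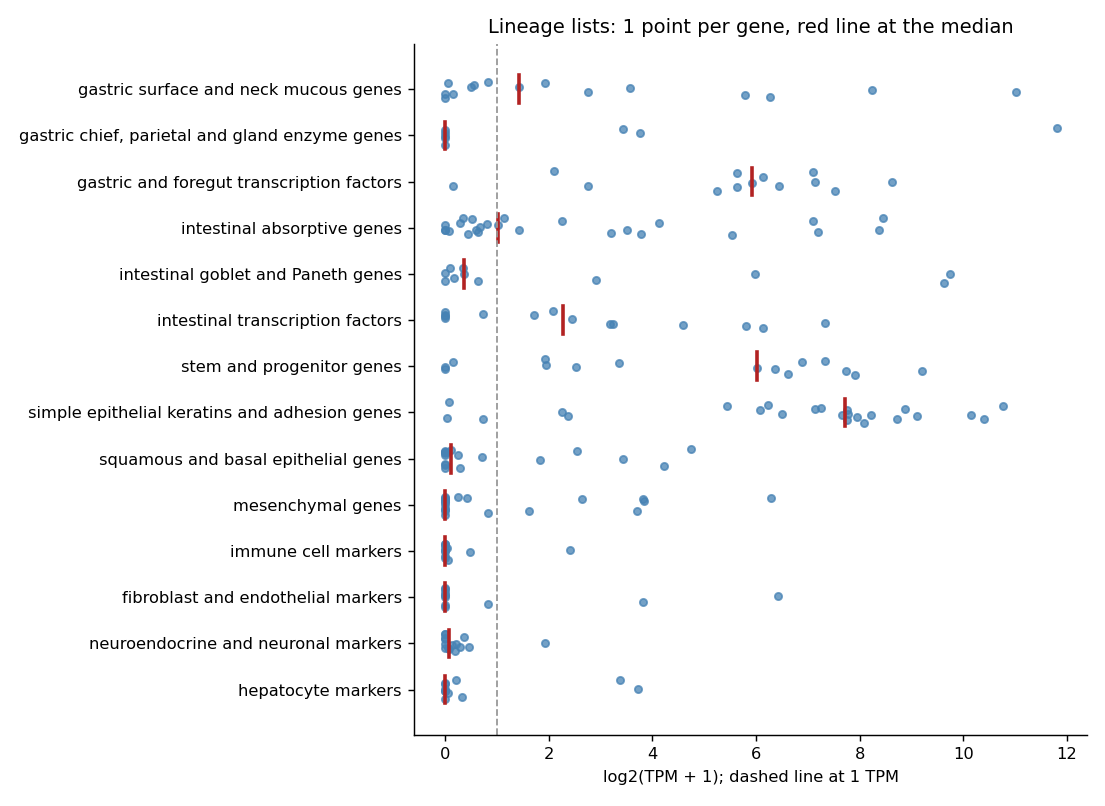
Levels of lineage and marker lists in the scrambled siRNA library as log2(TPM + 1), with 1 point per gene and a red line at the median of the list. Simple epithelial genes and gastric and foregut factors lie to the right, with medians of 7.71 and 5.92, and markers of other cell types pile up at 0.

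Simple epithelial genes were high by list median, with CDH1 among the lower members. Of 24 simple keratins and adhesion genes 21 reached 1 TPM (87.5%, beside 67% of all coding genes), and the median was 208 TPM. After KRT8 came KRT19 at 1343 TPM, the adhesion protein EPCAM at 1136 TPM, JUP, which encodes plakoglobin, at 471 TPM and CTNNB1, which encodes beta-catenin, at 421 TPM. KRT18, the filament partner of KRT8, measured 202 TPM. CDH1, which encodes E-cadherin, the main adhesion receptor of epithelial cells (ENSG00000039068.18, chromosome 16, 68737225 to 68835548, plus strand), measured 4.16 TPM on about 120.1 estimated reads, percentile 40.3 of coding genes. KRT7 measured 0.052 TPM, P-cadherin CDH3 0.03 TPM and CLDN3 0.67 TPM, and these were the 3 members under 1 TPM. In GENCODE 29, 5.62% of CDH1 exon bases and 7.67% of those of KRT7 are shared with another gene. These shares do not settle how reads were assigned. The low CDH1 value did not come with a mesenchymal profile. Of 20 mesenchymal genes 6 reached 1 TPM (30%, beside 67% of all coding genes). Listed at 0 were 11, beside 18.3% of all coding genes, and CDH2, ZEB2, SNAI2, TWIST1 and SPARC were among the 11. VIM, which encodes vimentin, measured 2.10 TPM, ZEB1 0.34 TPM and FN1 0.18 TPM, while SNAI1, a repressor of CDH1, measured 11.97 TPM and the calcium-binding S100A4 77.5 TPM. The epithelial splicing factors ESRP1 and ESRP2 stood at 214 and 74.4 TPM. Of 17 squamous and basal genes 5 reached 1 TPM (29.4%, beside 67% of all coding genes). KRT10 was highest at 25.7 TPM, and TP63 and KRT5 were listed at 0.

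Of 15 progenitor genes 12 reached 1 TPM (80%, beside 67% of all coding genes). Their median was 64.1 TPM, beside 11.3 TPM over all coding rows. SOX9, a factor of progenitor cells, stood at 585 TPM, AXIN2 at 239 TPM, the stem cell receptor LGR5 at 212 TPM, RNF43, a ubiquitin ligase that removes Wnt receptors, at 159 TPM and the polycomb factor BMI1 at 117 TPM. OLFM4 and ASCL2 measured 4.77 and 2.87 TPM, and PROM1 0.11 TPM. AXIN2, LGR5 and RNF43 are known targets of Wnt signalling, so a list of 18 Wnt targets was added after these values had been seen. Of these, 16 reached 1 TPM (88.9%, beside 67% of all coding genes) and 8 reached 100 TPM, beside 11.1% of all coding genes. AXIN2, LGR5, RNF43, TNFRSF19, ZNRF3, ASCL2, CCND1 and MYC were members of other lists too. The share was therefore not independent of values already seen. RNF43 shares 73.9% of its exon bases with another gene, so its level is uncertain. The highest were BAMBI at 555 TPM, the cyclin CCND1 at 541 TPM, the secreted Wnt inhibitor DKK1 at 531 TPM and the zinc finger factor SP5 at 521 TPM. NKD1 and NOTUM, both feedback inhibitors, measured 79.9 and 18.3 TPM, while LEF1 and APCDD1 were listed at 0. Among 17 WNT ligand genes 5 reached 1 TPM, a smaller share than the 67% of all coding genes, and the highest was WNT5B at 19.6 TPM.

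Receptor tyrosine kinases, the surface receptors that pass growth factor signals to RAS and PI3K, were described for all 58 members listed. Of these, 30 reached 1 TPM (51.7%, beside 67% of all coding genes) and 25 reached 10 TPM, where 51.5% of all coding genes lay. Listed at 0 were 16, beside 18.3% of all coding genes. The highest was EPHA2, a receptor for ephrin-A ligands, at 321 TPM, followed by the pseudokinase PTK7 at 173 TPM, EPHB4 at 162 TPM and EPHA1 at 128 TPM. MST1R, the receptor of macrophage-stimulating protein, measured 108 TPM, the HGF receptor MET 105 TPM and the collagen receptor DDR1 101 TPM. ERBB2 was 8th in the order. Behind it came PDGFRA at 84.8 TPM, ERBB3, a partner of ERBB2 with weak kinase activity, at 72.1 TPM, ROR1 at 71.5 TPM, FGFR4 at 68.6 TPM and RYK at 56.0 TPM. Then followed EPHB2, EPHA4, TYRO3, EGFR, EPHB3, LMTK2, AXL, LMTK3, FGFR2, FGFR3, INSR and MERTK, from 50.1 down to 14.9 TPM, with EGFR at 35.0 TPM and FGFR2 at 20.7 TPM. ERBB4, KIT, KDR, ALK and NTRK3 were listed at 0, and FGFR1 measured 0.017 TPM. Within the order, MST1R, MET and DDR1 lay within 7 TPM of each other, and ERBB2 and PDGFRA within 6 TPM, differences to which no replicate error can be put.

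**Figure D3:**
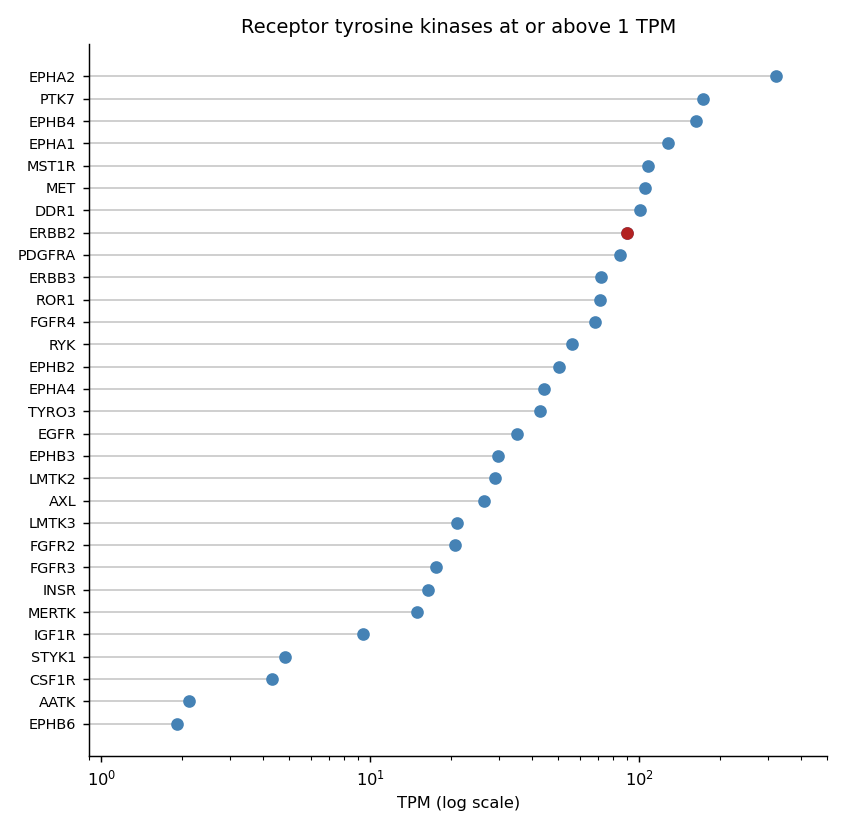
TPM (log scale) of the 30 receptor tyrosine kinases at or above 1 TPM in the scrambled siRNA library, in order, with ERBB2 in red. EPHA2 leads at 321 TPM, and ERBB2, at 89.8 TPM, is 8th.

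Ligands were listed mainly for the EGF, FGF, HGF, IGF, VEGF and PDGF receptors, without ephrins. Of 25 with a row 10 reached 1 TPM (40%, beside 67% of all coding genes). At 0 were 12, beside 18.3% of all coding genes. VEGFB stood at 179 TPM, GAS6, the ligand of AXL, TYRO3 and MERTK, at 74.3 TPM, PDGFA at 69.5 TPM and VEGFA at 53.2 TPM. Of the EGF receptor ligands, HBEGF measured 25.97 TPM, TGFA 23.97 TPM and BTC 13.8 TPM, while EGF, AREG, EREG, EPGN and NRG1 were listed at 0. HGF, the ligand of MET, was also listed at 0.

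The neighbours of ERBB2 on chromosome 17 are co-amplified with it in HER2-positive tumours. Here the levels of those within 100 kb ranged from 0 to 60.4 TPM. DNA copy number was not measured, and its part in these levels was not tested. Of 9 coding genes that start within 100 kb of the ERBB2 start, 5 reached 1 TPM. Beside this, 692 of 1011 on the chromosome and 67% of all coding genes did. The median of the 9 was 3.29 TPM. GRB7, an adaptor of receptor tyrosine kinases, measured 60.4 TPM, the lipid transfer gene STARD3 43.0 TPM, MIEN1 18.6 TPM and PGAP3 18.1 TPM. IKZF3 measured 3.29 TPM, and PPP1R1B, TCAP, PNMT and NEUROD2 were under 1 TPM. The 40 coding genes between 100 and 1000 kb away had a median of 39.1 TPM, and all 1011 on the chromosome 12.3 TPM. The high values of the region lay farther out, at RPL19 with 1586 TPM, TNS4, a tensin of focal adhesions, with 1402 TPM, the proteasome subunit gene PSMB3 with 471 TPM and RPL23 with 378 TPM. TOP2A, a topoisomerase, measured 286 TPM.

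**Figure D4:**
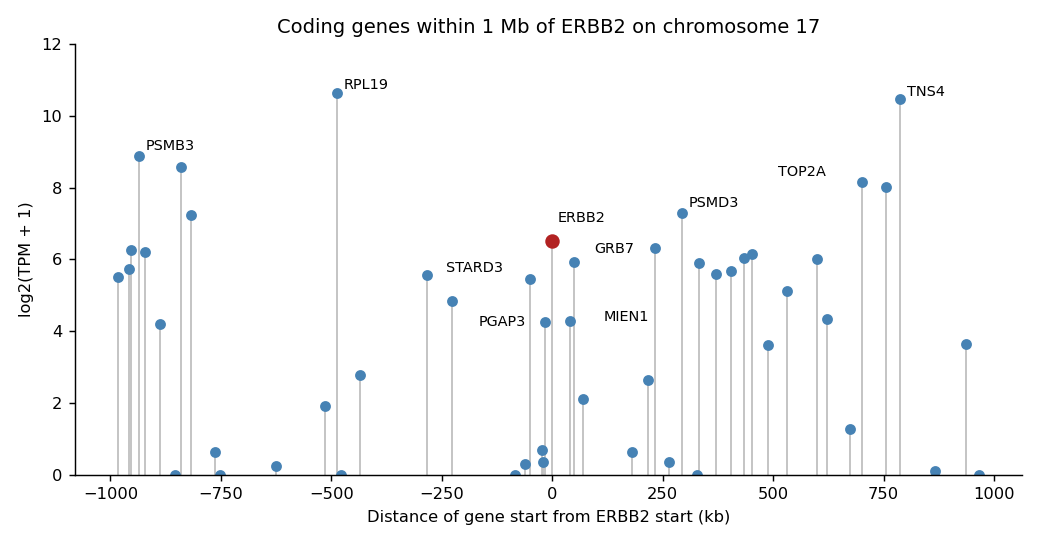
log2(TPM + 1) of coding genes within 1 Mb of the ERBB2 start in the scrambled siRNA library against the distance of their starts from it in kb, with ERBB2 in red. ERBB2 and GRB7, at 89.8 and 60.4 TPM, lie at the level of many genes farther out, and RPL19 and TNS4 are the highest.

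Of 30 oncogenes listed 29 reached 1 TPM (96.7%, beside 67% of all coding genes), and CCND2, at 0.24 TPM, did not. RHOA, a small GTPase of the cytoskeleton, stood at 1131 TPM, the cyclin CCND1 at 541 TPM, the survival factors MCL1 and BCL2L1 at 381 and 311 TPM and MYC at 254 TPM. YAP1, the Hippo pathway effector named in the series title, measured 152 TPM and CCNE1 75.98 TPM. The telomerase gene TERT measured 3.64 TPM. Of 33 tumour suppressors 31 reached 1 TPM (93.9%, beside the same 67%), from the cell cycle inhibitors CDKN1A at 325 TPM and CDKN1B at 251 TPM, FAT1 at 223 TPM and the receptor TGFBR2 at 222 TPM to FHIT at 4.49 TPM and CDH1. SMAD4 measured 12.6 TPM and APC 6.78 TPM. CDKN2A, which encodes p16 and p14ARF, and RUNX3 measured 0.049 and 0.047 TPM, about 1.0 estimated read each. FOXP4, the target in the other libraries, measured 93.9 TPM, rank 2032, with FOXP1 at 33.4 TPM and FOXP2 listed at 0.

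Among surface proteins that antibodies and antibody-drug conjugates are aimed at, 25 of 29 reached 1 TPM (86.2%, beside 67% of all coding genes). EPCAM at 1136 TPM, NECTIN2 at 469 TPM, LY6E at 392 TPM, CDH17 at 350 TPM and PVR at 306 TPM were among the highest. MSLN, which encodes mesothelin, measured 92.4 TPM, next to ERBB2 in the order. CLDN18 stood at 10.9 TPM and the checkpoint ligand CD274 at 1.76 TPM, and MUC16, VTCN1 and SLC34A2 were listed at 0. Of 34 drug target and drug handling genes 27 reached 1 TPM (79.4%, beside 67% of all coding genes). GSTP1, a glutathione transferase, measured 1071 TPM, the tubulin TUBB 746 TPM, the quinone reductase NQO1 559 TPM, CYP2S1 496 TPM, and the topoisomerases TOP1 and TOP2A 302 and 286 TPM. TYMS, the target of fluorouracil, measured 59.0 TPM, and DPYD, which breaks that drug down, 0.66 TPM. The efflux pump gene ABCB1 was listed at 0 and ABCG2 measured 0.83 TPM, while ABCC1 stood at 54.2 TPM. Among secreted proteases and inhibitors 19 of 27 reached 1 TPM, and this 70.4% was close to the 67% of all coding genes. The highest were the collagenase MMP1 at 996 TPM, TIMP1 at 728 TPM, the membrane serine protease ST14 at 631 TPM, CST3 at 591 TPM, PRSS8 at 431 TPM and MMP14 at 397 TPM. MMP2 and MMP9 were listed at 0.

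Antigen presentation genes were unequal. B2M, the invariant chain of class I molecules, stood at 697 TPM, HLA-E at 217 TPM, the chaperone TAPBP at 125 TPM, HLA-B at 53.3 TPM and HLA-C at 16.4 TPM. The peptide transporter genes TAP1 and TAP2 measured 35.0 and 4.09 TPM. HLA genes are highly variable and alike, so reads can be lost or misplaced between them, and the order of HLA-B and HLA-C is uncertain. The class II genes HLA-DRA, HLA-DRB1, HLA-DPA1 and HLA-DQA1 were listed at 0 and their activator CIITA measured 0.08 TPM.

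Markers of other cell types were nearly absent. Of 49 immune, fibroblast, endothelial, neuroendocrine, neuronal and hepatocyte markers with a row, 6 reached 1 TPM (67% of all coding genes did). Listed at 0 were 28, beside 18.3% of all coding genes. The 6 were PDGFRA at 84.8 TPM, COL1A1 at 13.1 TPM, APOA2 at 12.1 TPM, FGB at 9.41 TPM, CSF1R at 4.33 TPM and MAP2 at 2.83 TPM. CD4, CD8A and CD14, DCN and LUM, VWF and CDH5, CHGA and ALB were listed at 0, and PTPRC, the pan-leukocyte CD45 gene, measured 0.03 TPM. The macrophage gene CD68 was listed at 0 too, but 85.8% of its exon bases are shared with another gene. Of 10 germ cell and cancer testis genes with a row 9 were listed at 0, beside 18.3% of all coding genes, and PRAME measured 5.51 TPM.

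In all, 11409 rows were listed at 0 (35.8%), of which 3067 were protein-coding (18.3% of coding rows). All shares given here cover genes with a row only. Listed genes without a row, among them CD3E, MS4A1 and APOB, enter no such share, and whether they were off is not known. Of the sensory receptor genes with a row, families chosen after values had been seen, 26 of 33 olfactory and 10 of 14 bitter taste receptor genes were at 0. They were a small part of the coding rows at 0. Of 1893 long non-coding RNA rows 47.5% were at 0, and of 845 small RNA rows, which poly(A) selection does not capture well, 72.8%. A 0 on 2000 bases of exon allows a level of up to 0.321 TPM at this depth. It can also arise where reads cannot be assigned to 1 gene. The median of 388 coding genes with 50 to 90% of their exon bases shared with another gene was 0.31 TPM, against 12.1 TPM for 16314 genes with less than 50% shared. RPL17 and RPS10, ribosomal genes that all cells need, measured 0.59 and 1.29 TPM with 35.3% and 39.4% of their exon bases shared. A low value of such a gene therefore does not show that it was off. RPL36A, RPL26 and RPS15A were low too, at 1.77, 5.59 and 6.97 TPM, with 8.40%, 14.3% and 3.26% shared. A small shared part therefore does not show that a low value is exact either. The levels of LYZ, VIL1, BCL2L1, TYMS and MTHFD2 are uncertain too, with 34.0%, 44.0%, 43.0%, 46.6% and 33.2% of exon bases shared.

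Chromosome 20 stood out when coding genes at or above 1 TPM were grouped by chromosome. Its 313 genes had a median of 50.7 TPM, with quartiles at 21.2 and 124 TPM. The medians of the other 22 chromosomes, X included, lay between 20.4 and 35.9 TPM, with chromosome 18 lowest and chromosome 1 highest. On chromosome 20, 99 of 457 coding genes (21.7%) reached 100 TPM, against 3.90% to 16.7% on the others. By 10 Mb intervals of gene start its medians were 53.6, 37.1, 67.8, 72.1, 45.3, 54.4 and 45.96 TPM. The intervals held from 21 to 74 such genes. Other chromosomes were not divided in this way, so the intervals have no like comparison. Its highest genes were CST1, the ribosomal protein gene RPS21 at 1415 TPM, PPDPF at 1235 TPM, RPN2, a subunit of the oligosaccharyl transferase, at 1160 TPM and PCNA, the sliding clamp of DNA replication, at 918 TPM. DNA copy number was not measured, and its part in these levels was not tested.

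**Figure D5:**
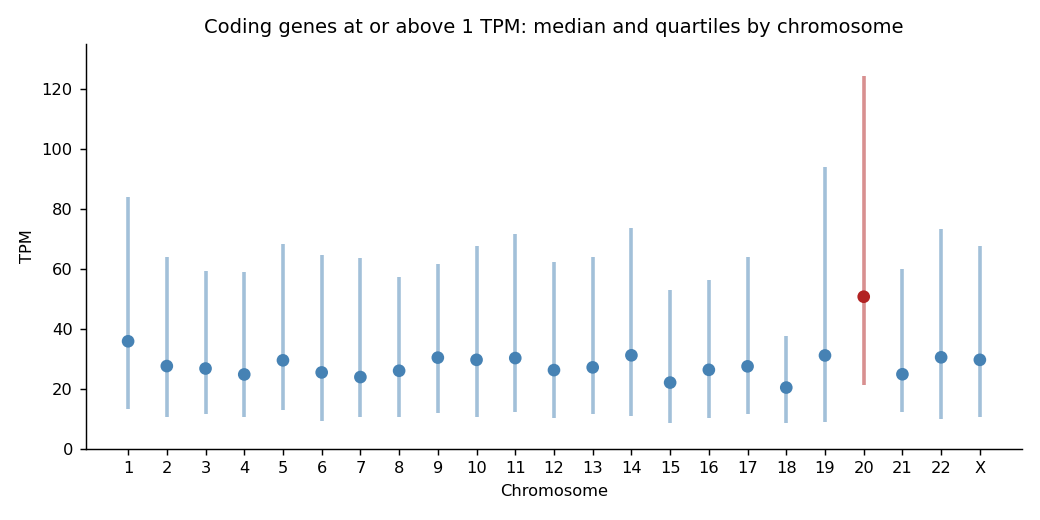
TPM of coding genes at or above 1 TPM in the scrambled siRNA library by chromosome, as medians (points) and quartiles (bars), with chromosome 20 in red. The median of chromosome 20 is 50.7 TPM, and the other 22 lie between 20.4 and 35.9 TPM.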

How the data were processed

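RNA of 3 libraries was measured, and only the scrambled siRNA library is described, with the level of ERBB2 given for the others. The authors deposited 1 table of TPM with gene symbols and 1 column per library, which per the submitters' processing notes was made on GRCh38. How reads were assigned to genes, and with which annotation, is not given in the sources used here. The column summed to 998273 TPM over 31907 rows, of which 26 bore dates in place of symbols and 4 shared a name. Symbols were matched to GENCODE 29 directly or through RefSeq synonyms, for 22945 rows holding 98.6% of TPM, which gave gene type, position and exon length. Depth was estimated from values under 2 TPM with at most 10 reads, as TPM times exon length times the smallest factor that makes them whole, and the code was tested on simulated data.

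With 1 library no test was possible. Genes were described by TPM, rank among all rows and percentile among coding rows, and lists by their counts at or above 1 TPM and their medians. The members and lists were chosen with earlier results of these data known. Of 540 listed genes 501 had a row, 2 under an older name, and the others were not analysed here. Genes were named by a rule: the 5 markers, the 30 most abundant nuclear rows, up to 6 highest and the zero members of each list, kinases at or above 10 TPM and the ERBB2 neighbours. Others, among them the Wnt list, the S100, claudin and sensory receptor families, the gene start sequences and chromosome 20, were chosen after values had been seen. Alternatives changed the threshold, the pseudocount and the scaling. Python 3.11.15, pandas 2.3.3 and numpy 2.4.6 were used. Some listed genes are not reported here.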

Additional observations from a re-analysis of the deposited data

How the results depend on the processing

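No paired analysis was possible because the control is 1 library with no test, and for the same reason no replicate could be left out. Of 32 alternative values, 23 kept their count or level within the limits set (1.5 times for counts and ranks, counting error for levels and shares). When genes of the mitochondrial genome were removed before scaling, the 10 most abundant genes took 7.08% of TPM, the 100 most abundant 22.4%, and ERBB2 measured 96.1 TPM. With protein-coding rows alone these values were 8.49%, 25.8% and 95.0 TPM, and 3067 genes were at 0. The median of log2(TPM + 1) was 0.08 higher for the gastric than for the intestinal lists, and with members at or above 1 TPM alone the difference was -0.37, so no order of these lists can be drawn. Without a filter on low values, an alternative chosen after seeing the data, the median of chromosome 20 was 23.6 TPM and those of the other chromosomes lay between 3.02 and 17.9 TPM. Depth limits values under about 0.321 TPM, which rest on 3 reads or fewer for 2000 bases of exon.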

Other observations

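Serine synthesis genes were uneven in the scrambled siRNA library, a list chosen after values had been seen. PSAT1, the second enzyme of the pathway, measured 1808 TPM, and PSPH, the last, 227 TPM. The mitochondrial enzymes SHMT2 and MTHFD2, which pass serine carbon to folate, measured 459 and 318 TPM. PHGDH, the entry enzyme, measured 0.15 TPM on about 6.5 estimated reads. GENCODE 29 has none of its exon bases shared with another gene, which does not settle how reads were assigned.

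The iron storage protein ferritin has 2 kinds of chain. FTL measured 22494 TPM, while FTH1, its heavy chain partner in the iron storage shell, measured 586 TPM. GENCODE 29 has 62.4% of the exon bases of FTH1 shared with another gene and none of those of FTL, so the level of FTH1 is uncertain and no imbalance can be read from these values. The 16 FTH1 pseudogene rows summed to 62.7 TPM and the 9 FTL pseudogene rows to 105 TPM. The transferrin receptor gene TFRC measured 114 TPM, the iron exporter SLC40A1 43.96 TPM and NCOA4, which brings ferritin to lysosomes, 173 TPM.

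Families were led by few members. CLDN6, a claudin of embryonic epithelia, was the highest of 18 claudin genes at 672 TPM, above CLDN7 at 295 TPM, CLDN2 at 270 TPM and CLDN4 at 245 TPM. Of 36 HOX genes 15 reached 1 TPM, where 67% of all coding genes did, and HOXB9 led at 177 TPM, before HOXC6 at 26.5 TPM. Of 40 keratin genes 20 were listed at 0, beside 18.3% of all coding genes. Of 16 mucin genes 3 reached 1 TPM, again beside 67%. They were MUC13, MUC1 and MUC20, the last at 6.95 TPM, and none encodes a gel-forming mucin. The long non-coding RNA UCA1 measured 127 TPM and NEAT1 43.97 TPM.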
